A study of Glycine max with 12 samples.

Results

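Seed coats of soybean that are black at the saddle and yellow around it were cut into these regions in 2 lines, and the difference between saddle and yellow region was compared between the lines, gene by gene. All 12 libraries of the study entered: 6 from Clark 18a, which has the alleles i-i and k1, and 6 from Clark 8, which has i-k and K1. Each line gave 3 pairs of libraries, 1 pair for each biological repeat, and a pair holds the future black saddle and the future yellow part of immature seed coats, freeze-dried and taken from seeds of 100 to 200 mg fresh weight. The regions were dissected while the coats were immature, and each group is a mixed tissue in which fewer cells of a kind and less RNA per cell cannot be told apart. Alleles at both the I and the K1 locus separate the lines, whose effects cannot be told apart here, and the labels do not say whether repeats came from separate plants. The quantity followed throughout is the difference of differences: black minus yellow in Clark 18a, minus black minus yellow in Clark 8, on the scale log2(RPKM + 1). RPKM is the number of hits to a transcript, scaled to its length and to the total hits of the library. A positive value means that black stood higher relative to yellow in Clark 18a than in Clark 8.

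Chalcone synthase makes the first compound of the flavonoid pathway, from which the dark anthocyanin and proanthocyanidin pigments of soybean seed coats derive. The I locus lies in a cluster of chalcone synthase genes on chromosome 8, and its silencing alleles give rise to small RNAs that lower the transcripts of the family in the parts of the coat that stay yellow. Argonaute proteins bind small RNAs and guide the cutting of matching transcripts. The study's title ties the K1 locus to Argonaute5. The names AGO5 (Glyma.11G190900) and chalcone synthase (14 identifiers, 8 of them on chromosome 8) come from knowledge of these lines and not from a table, and all other genes are given by identifier without a role. Markers that would check the dissection or carry-over of cotyledon could not be looked up for the same reason.

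In units of 1000000 recovered hits, the libraries held 83.1 to 192. Bio Repeat 3 was sequenced less deeply, with no library above 89.5 such units, while none of Bio Repeats 1 and 2 lay under 118. Its 4 libraries carry consecutive numbers across both lines, whereas the numbers of Bio Repeats 1 and 2 are consecutive within a line. For Bio Repeats 1 and 2 the line and the set of libraries cannot be told apart, apart from what cancels within a pair. The pairs did not group by line alone: across the 30775 genes tested, the difference in the third pair of Clark 18a correlated at 0.826 with the third pair of Clark 8, and at 0.631 and 0.699 with the first and second pairs of its own line. Within lines the correlation ran from 0.631 to 0.912, and between lines it was 0.741 to 0.826 for pairs of the same repeat and 0.633 to 0.806 for others. These values describe genes, which are not independent replicates.

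Many genes called between saddle and yellow region in one line were called the same way in the other. In Clark 18a, 12015 genes passed an adjusted p of 0.05 in limma with Benjamini-Hochberg adjustment (39.0% of those tested), 6096 higher in black (19.8%) and 5919 lower (19.2%). In Clark 8, 11430 passed (37.1%), 4915 higher (16.0%) and 6515 lower (21.2%). Both lines shared 4098 genes that were higher in black and 4250 that were lower, while 19 (0.0617%) were called in opposite directions. The shared genes made up 69.5% of the calls of Clark 18a and 73.04% of those of Clark 8. Of the 3648 genes called in Clark 18a alone, 90.2% had the same sign in Clark 8, and of the 3063 called in Clark 8 alone, 87.9% had the same sign in Clark 18a. These counts and shares moved with single libraries and with the pairing. Without the first, second or the third pair of Clark 8, the shared genes made up 47.6%, 45.9% and 51.8% of the Clark 18a calls. Without the second pair of Clark 18a they made up 52.2% of the Clark 8 calls. Clark 18a had 7205 calls without its second pair, Clark 8 had 5490 and 5270 without its first and second, and without the pairing Clark 18a had 4607 and Clark 8 had 4268.

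**Figure D1:**
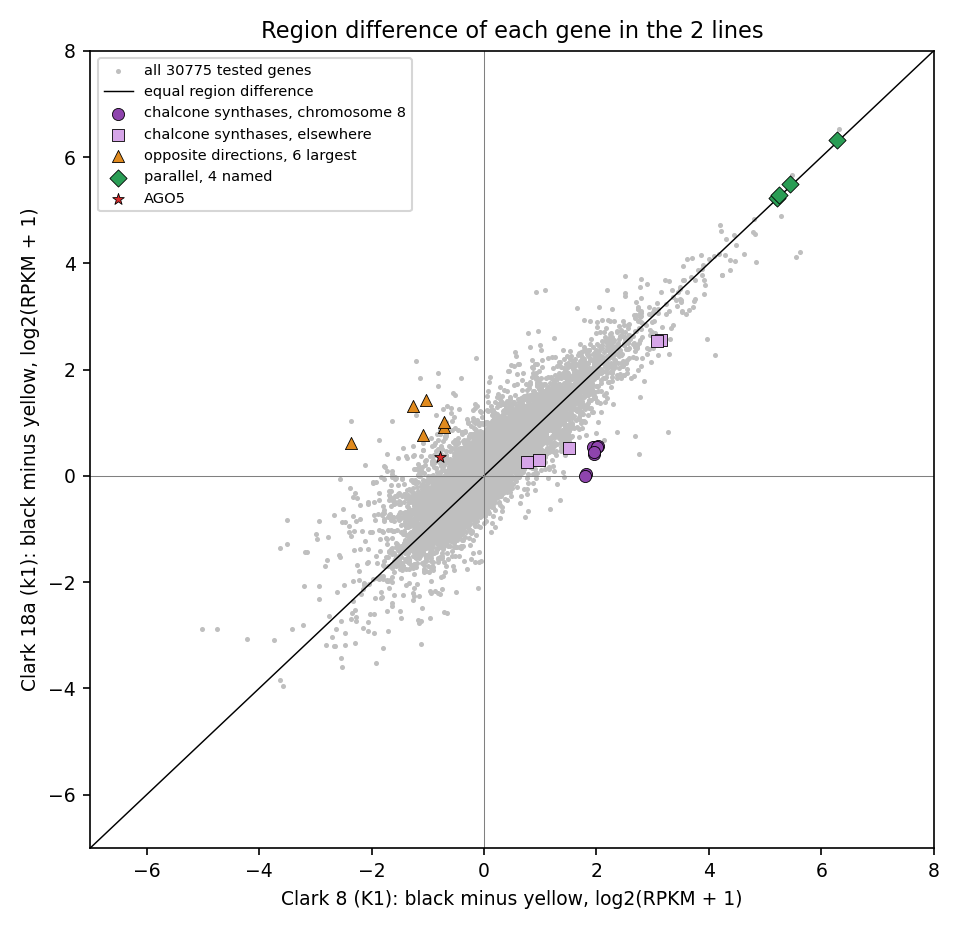
Black minus yellow difference, in log2(RPKM + 1), of each of the 30775 tested genes, with Clark 18a on the vertical axis and Clark 8 on the horizontal axis; the diagonal marks equal differences. Most genes follow the diagonal, the 8 chalcone synthases of chromosome 8 lie to its right (0.00 to 0.57 in Clark 18a and 1.80 to 2.03 in Clark 8), and the 6 largest genes called in opposite directions lie in the upper left.

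The differences of differences were small for most genes. Their median was 0.03, with 5th and 95th percentiles of -0.34 and 0.49, and 92.9% of genes lay within 0.5 of 0. The median standard error was 0.14. A size of at least 1 was reached by 412 genes (1.34%), 322 above 0 and 90 below. By limma with Benjamini-Hochberg adjustment over all tested genes 1 gene passed (0.00325%), above 0, and 12 (0.0390%) had an adjusted p under 0.1, 8 above 0 and 4 below. At an unadjusted p under 0.05 there were 3146 genes (10.2%), 2295 above 0 (7.46%) and 851 below (2.77%). The pair differences of the lines did not overlap for 4733 genes (15.4%), 3401 of them with Clark 18a above (11.1%) and 1332 with Clark 18a below (4.33%). A set of 3 pairs against 3 cannot reach an exact permutation p below 0.1, so no single gene has a permutation test.

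The gene that passed was Glyma.03G074000, which codes for 181 amino acids on chromosome 3. In Clark 18a it measured 0.851, 1.65 and 1.70 RPKM in black and 0.257, 0.539 and 0.933 RPKM in yellow in Bio Repeats 1 to 3. In Clark 8 it measured 0.772, 1.01 and 0.881 RPKM in black and 9.07, 11.6 and 6.28 RPKM in yellow. The 3 Clark 8 yellow libraries stood above all others with the other 3 groups under 2 RPKM, and the gene had 40 to 1692 hits per library. Black was higher than yellow in Clark 18a, by 0.61 (limma SE 0.14, adjusted p = 0.0142), and lower in Clark 8, by a difference of -2.37 (adjusted p = 0.000136). The difference of differences was 2.98 (SE 0.20, adjusted p = 0.0431), with 0.56, 0.78 and 0.48 in the pairs of Clark 18a and -2.51, -2.65 and -1.95 in those of Clark 8. This call is a narrow one. It was lost when the same-numbered pairs of the lines were matched as a block (adjusted p = 0.121), and without any of 5 pairs: Bio Repeat 1, 2 or 3 of Clark 18a (0.104, 0.141 and 0.0672) or Bio Repeat 1 or 2 of Clark 8 (0.194 and 0.288). Without Bio Repeat 3 of Clark 8 it was 0.0207, and the estimate stayed between 2.83 and 4.75 over all settings tried. The call of black above yellow in Clark 18a was lost without the second pair of Clark 18a, without the pairing (0.0969) and with quantile normalization.

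AGO5, the Argonaute gene of the study's title, was lower in black than in yellow in Clark 8, and in Clark 18a black stood slightly above yellow without passing the test. In Clark 18a it had 1.26, 1.48 and 2.50 RPKM in black and 0.81, 0.949 and 1.66 RPKM in yellow. In Clark 8 it had 3.12, 3.48 and 5.20 RPKM in black and 8.58, 9.59 and 4.68 RPKM in yellow. All 6 Clark 18a libraries lay below all 6 of Clark 8, and in Bio Repeat 3 of Clark 8 black was the higher of the pair. The pair differences were 0.32, 0.35 and 0.40 in Clark 18a (limma 0.35, adjusted p = 0.292) and -1.22, -1.24 and 0.13 in Clark 8, where AGO5 fell by 0.78 in black (SE 0.25, adjusted p = 0.0475). That call held in 8 of 19 other settings, with adjusted p-values from 0.00143 to 0.232, and was 0.0805 without the pairing. The rise in Clark 18a passed in 2 of 19, without the third pair of Clark 8 and in Bio Repeats 1 and 2 alone (lowest adjusted p = 0.0118). The lines share the limma SE, while the SD of the pair differences was 0.04 in Clark 18a and 0.78 in Clark 8. The difference of differences was 1.13 (SE 0.35) and did not pass (adjusted p = 0.356, rank 1309 by p). The pairs of the lines did not overlap, as was the case for 15.4% of all genes. Over all settings it ran from 0.90 to 1.58, with adjusted p-values from 0.0627 to 1.0. Both transcript models of the gene code for 890 amino acids, and the other model gave 1.14.

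The chalcone synthases of chromosome 8, taken as a sum, were higher in black than in yellow in both lines. The difference was the larger one in Clark 8 in each of the 3 repeats, but the difference of differences did not pass the test. Summed over the 8 members they measured 27.9, 39.5 and 39.3 RPKM in black and 20.2, 23.0 and 31.4 RPKM in yellow in Clark 18a. In Clark 8 the sum was 160, 161.1 and 167 RPKM in black and 44.1, 40.6 and 26.04 RPKM in yellow. The Clark 8 black libraries stood apart from the other 9, which lay between 20.2 and 44.1 RPKM, and the Clark 8 yellow libraries overlapped both Clark 18a groups. Black over yellow, as a ratio of means, was 1.43 in Clark 18a and 4.41 in Clark 8. In limma the sum rose by 0.51 in Clark 18a black (SE 0.17, adjusted p = 0.0488) and by 2.14 in Clark 8 black (adjusted p = 0.000291). The rise in Clark 18a held in 6 of 19 other settings (adjusted p = 0.0167 to 0.219), and it was lost when the lines' same-numbered pairs were matched (0.0672). The rise in Clark 8 held in all 19.

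The difference of differences of this sum was -1.64 (SE 0.23), with -1.39, -1.21 and -2.32 in Bio Repeats 1 to 3. It did not pass in limma (adjusted p = 0.153), and over all settings it ran from -1.79 to -1.30 with adjusted p-values from 0.0869 to 0.574. Split by region, Clark 18a stood below Clark 8 by a log2 difference of -2.18 in black and of -0.54 in yellow. The 8 members gave -1.80 to -1.39, with a median of -1.49 against 0.03 over all genes tested, and 0 of 8 passed, at adjusted p-values of 0.0823 to 0.153. All 8 had an unadjusted p under 0.05, against 10.2% of all genes, and voom on the recovered hits also called 0. Without the pairing 1 of 8 passed, Glyma.08G109400 (adjusted p = 0.0434). In black, 6 of 8 rose in Clark 18a, against 19.8% of all genes, and 8 of 8 in Clark 8, against 16.0%. In Clark 18a, Glyma.08G109300 (0.04) and Glyma.08G109400 (0.00) did not pass. With the lines' same-numbered pairs matched, 4 of 8 rose in Clark 18a black. It was 0 of 8 without the pairing and without the first or the second pair of Clark 18a, and 3 of 8 without the third pair of Clark 18a.

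These 8 are not 8 independent measurements. Glyma.08G110300, Glyma.08G110500, Glyma.08G110700, Glyma.08G110900 and Glyma.08G109300 reached maxima of 4767, 4764, 4757, 4771 and 4747 hits in a library, although their transcript lengths are 1496, 1421, 1647, 1383 and 2792 bases. Near-identical copies can receive the same reads, and no source used here says how reads with several hits were counted. A read counted for each copy would enter the sum repeatedly, so the RPKM level of the sum may be too high. A single member's RPKM is therefore uncertain, and Glyma.08G110400, a gene of 340 amino acids that lies between 2 of them by identifier, shares the pattern: 4.35, 6.41 and 6.19 RPKM in Clark 18a black, 3.04, 3.54 and 4.50 in Clark 18a yellow, 25.9, 25.7 and 30.7 in Clark 8 black and 7.23, 6.47 and 4.81 in Clark 8 yellow (difference of differences -1.50, limma adjusted p = 0.153).

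The chalcone synthases at other positions, taken as a sum, were also higher in black in both lines. The sum over 6 members was 227, 499 and 362 RPKM in black and 70.5, 66.2 and 44.5 RPKM in yellow in Clark 18a, and 508, 530 and 454 RPKM in black and 70.1, 86.2 and 29.4 RPKM in yellow in Clark 8. The yellow libraries of the lines overlapped, and so did the black ones, at the second repeat of Clark 18a. The sum rose by 2.52 in Clark 18a black (limma adjusted p = 0.00168) and by 3.12 in Clark 8 black (adjusted p = 0.000808), and the difference of differences was -0.60 (SE 0.46, adjusted p = 0.725). This value was -0.17 without the first pair of Clark 18a, -0.20 without the third pair of Clark 8 and -0.28 with quantile normalization. It was -1.17, 0.29 and -0.91 in Bio Repeats 1 to 3. Glyma.01G228700 and Glyma.11G011500 carry most of this sum and gave -0.60 and -0.54, or -0.18 and -0.11 without the first pair of Clark 18a and -0.22 and -0.14 without the third of Clark 8. Glyma.05G153200 is lower in level, with 2.25, 2.99 and 2.32 RPKM in Clark 18a black, 1.31, 1.67 and 1.35 in Clark 18a yellow, 7.58, 6.47 and 6.80 in Clark 8 black and 1.97, 2.02 and 1.37 in Clark 8 yellow. Its difference of differences was -0.99 (SE 0.13, limma adjusted p = 0.151), and its 3 pairs in Clark 18a (0.50 to 0.58) all lay below those in Clark 8 (1.31 to 1.72). Glyma.09G075200 and Glyma.01G091400 gave -0.52 and -0.68 at levels near 1 RPKM, where the added 1 RPKM weighs most. With voom they gave -1.30 and -1.33, against -1.13 for Glyma.05G153200. As a ratio of means, black over yellow was 1.65 in Clark 18a and 4.04 in Clark 8 for Glyma.09G075200, and 1.66 in Clark 18a and 4.26 in Clark 8 for Glyma.01G091400. Of the 5 members tested, 4 rose in Clark 18a black (19.8% of all genes) and all 5 in Clark 8 black (16.0%), although Glyma.09G075200 did not in Clark 8 without the pairing (0.0707). Glyma.09G075200 did not pass in Clark 18a (0.25, adjusted p = 0.0963), and Glyma.01G091400 (adjusted p = 0.0431) did not with the lines' same-numbered pairs matched (0.0833) or without any 1 of the 6 pairs. Glyma.02G130400 was too low to be tested. In all, 13 of 14 chalcone synthase identifiers were tested, and all 13 lay below 0. Their median was -1.43, against 0.03 over all genes tested. Of the 13, 0 passed with limma or with voom (1 without the pairing), against 0.00325% of all genes with limma. Pairs that did not overlap, with Clark 18a below, were found for 11 of 13, against 4.33% of all genes. An unadjusted p under 0.05 below 0 was found for 11 of 13 as well, against 2.77%. In both counts the 11 include all 8 members of chromosome 8, which can share reads and are not independent. The other 5 may share reads too and need not be separate observations. In the Clark 18a pairs Glyma.01G228700 gave 1.70, 2.94 and 3.02, and Glyma.11G011500 gave 1.68, 2.93 and 3.01. Glyma.09G075200 gave 0.30, 0.43 and 0.03 there, and Glyma.01G091400 gave 0.30, 0.44 and 0.18. Whether the difference of differences itself differs between the chromosome 8 sum and the other sum was not tested.

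**Figure D2:**
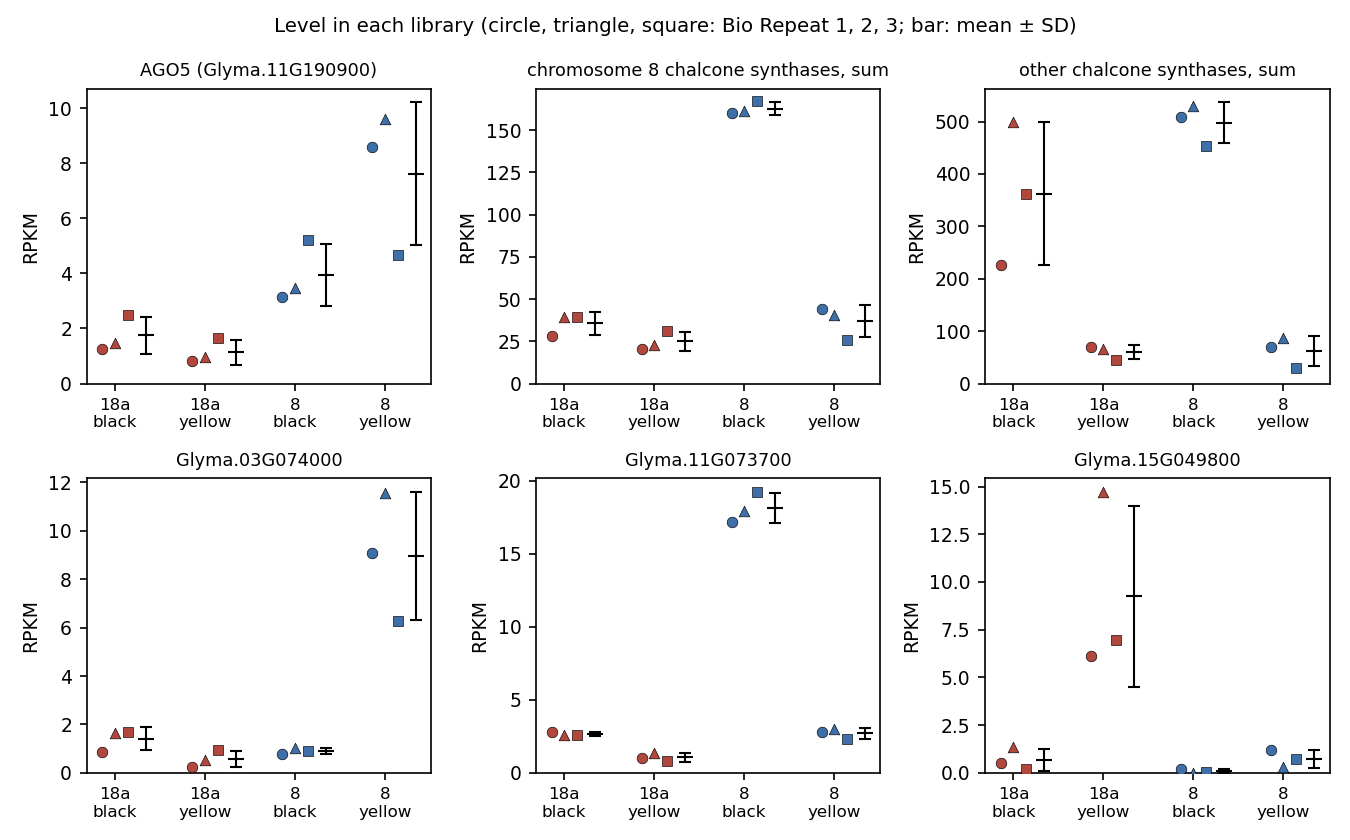
RPKM in each of the 12 libraries for AGO5, the 2 chalcone synthase sums and 3 further genes, with Clark 18a groups left of Clark 8 groups; symbols mark the biological repeat and bars give the mean and SD of 3 libraries. The chromosome 8 chalcone synthases and Glyma.11G073700 are high in Clark 8 black, Glyma.03G074000 in Clark 8 yellow, and Glyma.15G049800 in Clark 18a yellow. AGO5 has its highest mean in Clark 8 yellow, but its Bio Repeat 3 library there lies below that of Clark 8 black.

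Glyma.11G073700, a gene of 234 amino acids on chromosome 11, was likewise highest in Clark 8 black. It measured 2.78, 2.60 and 2.58 RPKM in Clark 18a black and 1.00, 1.39 and 0.808 RPKM in Clark 18a yellow. In Clark 8 it measured 17.2, 17.9 and 19.3 RPKM in black and 2.80, 3.03 and 2.28 RPKM in yellow. Repeats within each group were close, and Clark 8 black stood above every other library. It rose in black in both lines, by 0.83 in Clark 18a (limma adjusted p = 0.00191) and 2.37 in Clark 8 (adjusted p = 9.29e-05). As a ratio of means black over yellow was 2.49 in Clark 18a and 6.71 in Clark 8. The difference of differences was -1.54 (SE 0.16, adjusted p = 0.0851), and it passed without the pairing (0.0286).

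Glyma.15G049800 and Glyma.08G182700 also had low p-values on the same side, through high levels in Clark 18a yellow. Glyma.15G049800 measured 0.504, 1.33 and 0.2 RPKM in Clark 18a black and 6.1, 14.7 and 6.94 RPKM in Clark 18a yellow, against 0.206, 0.00417 and 0.0478 RPKM in Clark 8 black and 1.22, 0.277 and 0.726 RPKM in Clark 8 yellow. Yellow was above black in all 6 pairs, and Clark 18a was above Clark 8 in both regions. Its difference of differences was -1.92 (SE 0.20, limma adjusted p = 0.0851). Outside Clark 18a yellow too few of its libraries reached 1 RPKM for the filter, so Glyma.15G049800 was tested only because that group was high. As a ratio of means, yellow over black was 13.6 in Clark 18a and 8.62 in Clark 8. With voom on the recovered hits, which has no added 1 RPKM, the value shrank to -0.46 (adjusted p = 0.90). Glyma.08G182700, of 413 amino acids where Glyma.15G049800 has 414, gave -1.46 (adjusted p = 0.153) and -0.43 with voom, at ratios of 12.3 in Clark 18a and 7.93 in Clark 8.

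Of the genes with an unadjusted p under 0.05 and a size of at least 1 (329, 1.07% of those tested), 35 lay below 0 (0.114%). By identifier 12 of these 35 are on chromosome 8 (34.3%), which holds 6.87% of the tested genes. Of the 12, 9 lie in the run from Glyma.08G109200 to Glyma.08G110900, and they are the 8 listed chalcone synthases and Glyma.08G110400, which can share reads. The run holds 7 further tested genes. Of these, 6 gave values between -0.24 and 0.17, and Glyma.08G110800 gave -0.89 (limma adjusted p = 0.151).

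On the other side, several genes stood high in Clark 8 yellow and low in the other 3 groups. Glyma.10G002200, of 150 amino acids, measured 0.0107, 0.104 and 0.121 RPKM in Clark 18a black, 0.0235, 0.116 and 0.252 in Clark 18a yellow, 0.121, 0.076 and 0.034 in Clark 8 black and 7.17, 5.95 and 3.44 in Clark 8 yellow. Its difference of differences was 2.49 (SE 0.21, limma adjusted p = 0.0682), and it passed with pseudocounts of 0.1 and 0.5 (0.0412 and 0.0477), without the pairing (0.0286), with array weights (0.0340) and without the third pair of Clark 8 (0.0240). Glyma.02G002100, which codes for the same number of amino acids and has the same transcript length of 1062 bases, gave 1.56 (adjusted p = 0.0848), with 1.55 to 2.68 RPKM in Clark 8 yellow and at most 0.0947 elsewhere. Glyma.03G107900 gave 1.97 (adjusted p = 0.0823), with 2.46 to 3.72 RPKM in Clark 8 yellow and at most 0.541 elsewhere. Glyma.08G121600 gave 1.14 (adjusted p = 0.151), with means of 0.504 and 0.499 RPKM in Clark 18a black and yellow, and of 0.485 and 2.30 RPKM in Clark 8 black and yellow. Glyma.04G052800 also had its highest mean in Clark 8 yellow but was not low elsewhere. It gave 1.33 (adjusted p = 0.0958), with means of 3.24 and 2.47 RPKM in Clark 18a black and yellow, and of 2.89 and 7.19 RPKM in Clark 8 black and yellow. In these 5 genes Clark 8 was lower in black than in yellow (limma adjusted p = 0.000130 to 0.000642), and no region difference passed in Clark 18a. Outside Clark 8 yellow, Glyma.10G002200, Glyma.02G002100 and Glyma.03G107900 stayed under the 1 RPKM limit of the test in every library. They were tested only because that group was high. With voom, Glyma.10G002200, Glyma.02G002100, Glyma.03G107900 and Glyma.08G121600 gave 5.45, 5.89, 5.02 and 2.28, and none passed (adjusted p = 0.0804, 0.143, 0.152 and 0.0842). Without the pairing Glyma.02G002100 passed (0.0483), as did Glyma.03G107900 with array weights (0.0340).

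In other genes of this side black was lower in both lines, by less in Clark 18a. Glyma.10G129500 measured 0.0293, 0.729 and 1.02 RPKM in Clark 18a black and 1.61, 2.37 and 4.93 RPKM in Clark 18a yellow. In Clark 8 it measured 2.22, 0.915 and 0.232 RPKM in black and 31.3, 20.9 and 14.8 RPKM in yellow. It fell by 1.28 in Clark 18a black and by 3.51 in Clark 8 black (limma adjusted p = 0.000534 and 6.97e-05), a difference of differences of 2.23 (SE 0.17, adjusted p = 0.0669) that passed with quantile normalization (0.0394) and array weights (0.0340). The limma adjusted p of this difference of differences was 0.372 with a pseudocount of 0.1, 0.495 with voom and 0.9999 without the pairing. Without the second pair of Clark 8 it was 0.400. The region call of Glyma.10G129500 in Clark 18a was lost without the pairing (0.0634). Yellow over black as a ratio of means was 4.99 in Clark 18a and 19.9 in Clark 8. Glyma.08G318400 gave 1.74 (adjusted p = 0.115), with means of 0.999 and 4.41 RPKM in Clark 18a black and yellow and of 1.41 and 21.8 RPKM in Clark 8 black and yellow. Glyma.18G095100 gave 1.62 (adjusted p = 0.151), with means of 0.571 and 2.52 RPKM in Clark 18a black and yellow and of 0.671 and 10.9 RPKM in Clark 8 black and yellow. Glyma.10G256100 gave 1.29 (adjusted p = 0.151), but 0.56 with voom (adjusted p = 0.88). Glyma.03G193600 differed from all of these in that its high group was Clark 18a black, with 5.76, 7.403 and 6.61 RPKM there, 1.03, 1.13 and 1.09 in Clark 18a yellow, 1.44, 2.69 and 2.97 in Clark 8 black and 0.381, 0.939 and 1.28 in Clark 8 yellow. It rose in black in both lines, and its difference of differences was 1.01 (SE 0.11, adjusted p = 0.0958).

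**Figure D3:**
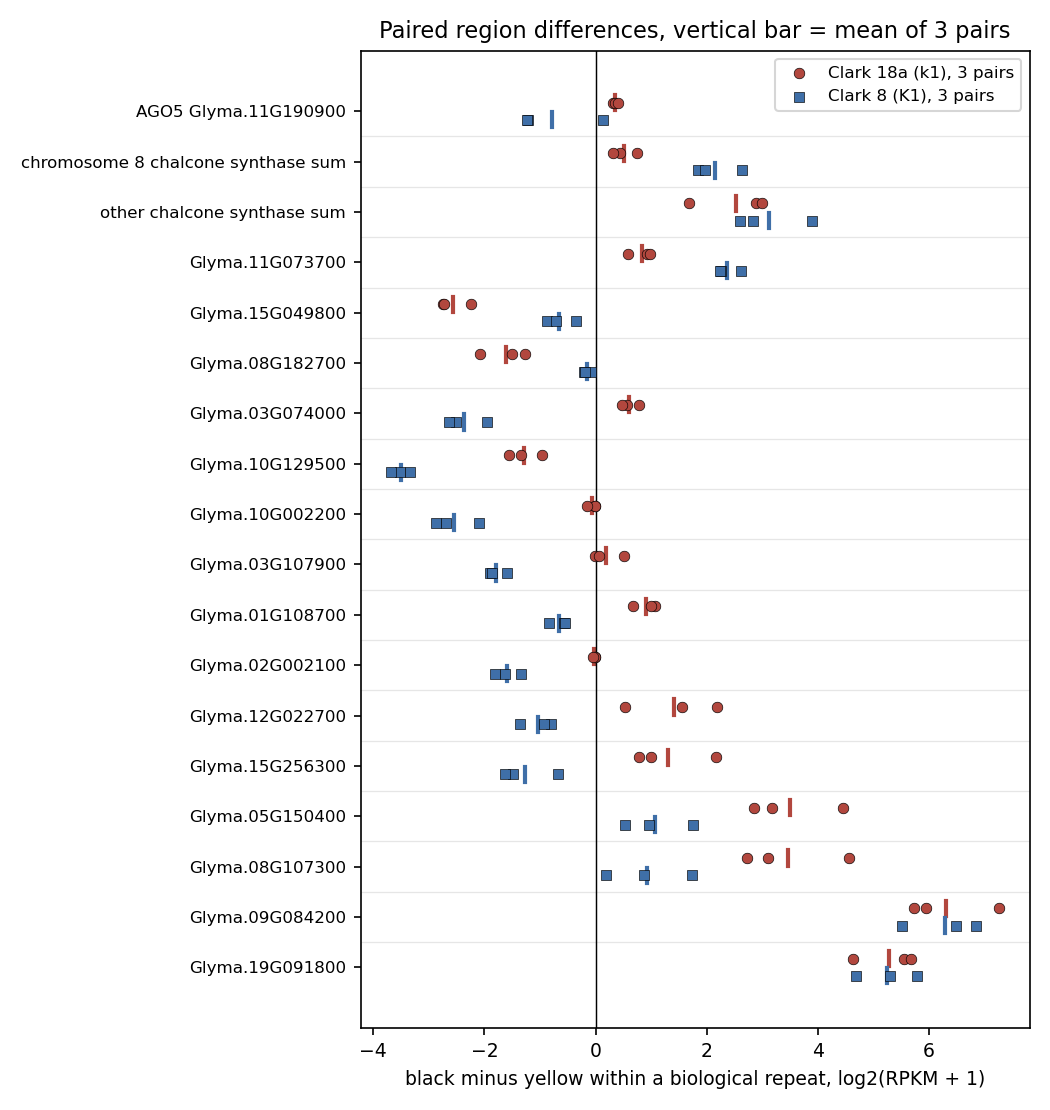
Black minus yellow within each biological repeat, in log2(RPKM + 1), for 18 genes or sums; circles are the 3 pairs of Clark 18a, squares the 3 pairs of Clark 8, and vertical bars their means. Glyma.03G074000 lies at 0.48 to 0.78 in Clark 18a and -2.65 to -1.95 in Clark 8, and the Clark 8 pair of Bio Repeat 3 of AGO5 (0.13) lies apart from the first and second.

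The 19 genes called in opposite directions in the lines had differences of differences of 0.56 to 2.98 in size, at limma adjusted p-values between 0.0431 and 0.274. All had an unadjusted p under 0.05, which follows from the choice. Opposite calls from the same fit with the same standard error make it certain. In 18 of them black was higher in Clark 18a and lower in Clark 8, and in 1, Glyma.02G020900, the reverse held. The number called in opposite directions was 1 without the pairing, 53 with the lines' same-numbered pairs matched and 71 in Bio Repeats 1 and 2 alone. Among the settings that left out 1 pair it was lowest without the first or second pair of Clark 8 (5 and 6) and highest without the first of Clark 18a (48). Among the 5 named next, Glyma.15G256300, Glyma.16G137000 and Glyma.01G083000 were no longer called in Clark 8 without the first or the second pair of Clark 8, and Glyma.12G022700 and Glyma.06G239900 without any 1 of its 3 pairs. In Clark 18a, Glyma.16G137000 lost its call without the second or the third pair of Clark 18a, and Glyma.01G083000 without the second, and without the pairing Glyma.06G239900 alone of the 5 kept both. The largest after Glyma.03G074000 was Glyma.15G256300, which codes for 56 amino acids. It measured 3.18, 13.2 and 9.17 RPKM in Clark 18a black and 1.42, 2.17 and 4.12 RPKM in Clark 18a yellow, against 16.8, 8.58 and 7.28 RPKM in Clark 8 black and 48.9, 28.7 and 12.2 RPKM in Clark 8 yellow. The difference of differences was 2.58 (SE 0.41, limma adjusted p = 0.159), and it rose in black in Clark 18a (adjusted p = 0.0120) and fell in black in Clark 8 (adjusted p = 0.0144).

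Glyma.12G022700 measured 1.13, 9.26 and 11.6 RPKM in Clark 18a black and 0.478, 1.25 and 3.30 RPKM in Clark 18a yellow, against 3.18, 3.50 and 4.76 RPKM in Clark 8 black and 9.79, 6.86 and 9.997 RPKM in Clark 8 yellow. Its difference of differences was 2.46 (SE 0.40, limma adjusted p = 0.169). The first Clark 18a repeat was well below the others in both regions. Glyma.06G239900 gave 1.72 (adjusted p = 0.153; 4.30 with voom), with 0.639, 2.04 and 1.67 RPKM in Clark 18a black, 0.141, 0.142 and 0.243 in Clark 18a yellow, 0.708, 0.823 and 0.932 in Clark 8 black and 2.18, 1.83 and 1.88 in Clark 8 yellow. In Clark 8 its groups did not overlap, nor did they in Clark 18a, but it was named for its opposite calls, so this is no separate support. Outside Clark 8 yellow too few of its libraries reached 1 RPKM for the filter, so Glyma.06G239900 was tested only because that group was high. Glyma.16G137000 and Glyma.01G083000 gave 1.85 and 1.63 (adjusted p = 0.185 and 0.162), and in both the Clark 8 pair of Bio Repeat 3 differed least, at -0.39 and -0.10. Glyma.01G108700, of 180 amino acids, was called in both lines with opposite signs as well, at 0.91 in Clark 18a and -0.65 in Clark 8 (limma adjusted p = 0.00106 and 0.00429), and gave 1.56 (adjusted p = 0.0823), or 2.60 with voom. Its call in Clark 8 was lost without the pairing (0.0955).

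A description that uses no test takes the genes in which all 3 libraries of 1 group lay at least 3-fold beyond the other 9 libraries, at 1 RPKM or more. This rule was added after the values had been seen. It found 0 genes for Clark 18a black, and 2 above (0.0065% of tested genes) and 2 below for Clark 18a yellow. For Clark 8 it found 9 above in black (0.0292%) and 13 above in yellow (0.0422%). The 9 of Clark 8 black were Glyma.11G073700, Glyma.08G110400 and 7 of the 8 listed chromosome 8 chalcone synthases. Those 7 and Glyma.08G110400 can share reads and need not be separate observations. In Bio Repeats 1 and 2 alone the counts above were 5, 6, 15 and 83 in the same order of groups, and those below were 4, 37, 0 and 12. Among the 13 of Clark 8 yellow, Glyma.09G198900 and Glyma.17G030100 reached the highest levels. Glyma.09G198900 had means of 2.01 and 18.98 RPKM in Clark 18a black and yellow, and of 3.94 and 147 RPKM in Clark 8 black and yellow, with a difference of differences of 2.13 (limma adjusted p = 0.153). Glyma.17G030100 had means of 0.281 and 8.75 RPKM in Clark 18a black and yellow, and of 0.923 and 51.5 RPKM in Clark 8 black and yellow, and gave 1.86 (adjusted p = 0.151). Both fell in black in both lines. In Glyma.17G030100 the ratio of means, yellow over black, was 31.1 in Clark 18a and 55.7 in Clark 8, and its voom value was 0.77 (adjusted p = 0.52).

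Of the 13, 6 are not yet described, and they lay lower. Glyma.11G198500 had 5.25 to 30.2 RPKM in Clark 8 yellow and at most 1.61 elsewhere, with a difference of differences of 2.67 (limma adjusted p = 0.194). Glyma.12G049300, Glyma.18G009800, Glyma.20G034200 and Glyma.14G051600 gave 1.81, 1.73, 1.68 and 1.10 (adjusted p = 0.153, 0.238, 0.206 and 0.153), with at most 5.33 RPKM in any library. With voom they gave 3.94, 4.55, 5.11 and 3.55 (adjusted p = 0.38, 0.25, 0.18 and 0.34), while Glyma.11G198500 gave 1.73 (0.59). Glyma.10G109500 had 1.65, 1.79 and 1.52 RPKM in Clark 8 yellow and gave 0.82 (adjusted p = 0.153). Its sign turned with voom, to -0.58, and as a ratio of means black over yellow was 0.110 in Clark 18a and 0.169 in Clark 8. Apart from Glyma.11G198500, these 6 met the 1 RPKM limit of the test only in Clark 8 yellow, so they were tested only because that group was high.

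In Clark 18a yellow the 2 genes below all other libraries were Glyma.05G150400 and Glyma.08G107300. Glyma.05G150400 measured 19.7, 16.2 and 87.4 RPKM in Clark 18a black and 1.87, 0.912 and 3.03 RPKM in Clark 18a yellow. In Clark 8 it measured 34.04, 36.6 and 42.9 RPKM in black and 23.4, 18.4 and 12.001 RPKM in yellow. Clark 18a yellow lay below 4 RPKM, and the other 9 libraries lay above 11. It rose in black in both lines, by 3.49 in Clark 18a and 1.08 in Clark 8 (limma adjusted p = 0.000516 and 0.0409). The call in Clark 8 was lost in 6 of 19 other settings, among them without the pairing (0.214), without any 1 pair of Clark 8 and without the second pair of Clark 18a. The difference of differences was 2.41 (SE 0.47, adjusted p = 0.238). Glyma.08G107300 gave 2.54 (adjusted p = 0.257), with 20.1, 16.5 and 111 RPKM in Clark 18a black, 2.20, 1.03 and 3.74 in Clark 18a yellow, 39.4, 48.1 and 54.7 in Clark 8 black and 34.5, 25.9 and 15.8 in Clark 8 yellow. Glyma.08G107300 rose by 3.46 in Clark 18a black (limma adjusted p = 0.000985). Its rise of 0.93 in Clark 8 black did not pass (adjusted p = 0.102) and was called in 2 of 19 other settings. With the lines' same-numbered pairs matched, that rise passed (0.00356). Glyma.05G150400 and Glyma.08G107300 both code for 283 amino acids and reached 11174 and 11202 hits, so they may share reads and need not be separate observations. The 2 genes above all other libraries were Glyma.15G049800 and Glyma.10G092500. Glyma.10G092500 measured 0.904, 0.569 and 0.971 RPKM in Clark 18a black and 12.4, 6.1 and 3.99 RPKM in Clark 18a yellow, against at most 0.26 RPKM in Clark 8. Its difference of differences was -2.00 (limma adjusted p = 0.187), and only Clark 18a yellow met the 1 RPKM limit of the test.

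More genes lay on the side where Clark 18a black stood relatively higher, and this balance was not the same in each repeat. Of the 329 genes named above by size and unadjusted p, 294 were above 0 (0.955%) and 35 below. Of the 294, the lines differed more in yellow than in black in 267, and of the 35 in 19. The genes were chosen by these same values, so the 267 are no separate support. Over genes in general the line difference also spread more in yellow, with an SD of 0.37 against 0.31 in black. In 151 of the 294 black was above yellow in Clark 18a and below it in Clark 8, in 87 black was below yellow in both lines, and in 56 above. Counted within repeats without a test, 517 genes had a difference of differences of at least 1 and 336 of at most -1 in Bio Repeat 1. In Bio Repeat 2 these were 1037 and 228, and in Bio Repeat 3 they were 359 and 396. The limit was passed in all 3 repeats by 72 genes above 0 and by 13 below 0. Of the 72, 70 were lower in Clark 18a yellow than in Clark 8 yellow, as were 8 of the 13. For the 72 the choice itself favours this. A value above 0 means that Clark 18a minus Clark 8 is lower in yellow than in black. The share above 0 among genes at an unadjusted p under 0.05 was 72.9% and depended on scaling: it was 53.0% (1574 above and 1397 below) after upper quartile scaling and 54.7% (1624 and 1347) after quantile normalization. At a size of at least 1 the split was 262 and 48 with upper quartile scaling and 258 and 46 with quantile normalization. What moves the balance between repeats was not tested.

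**Figure D4:**
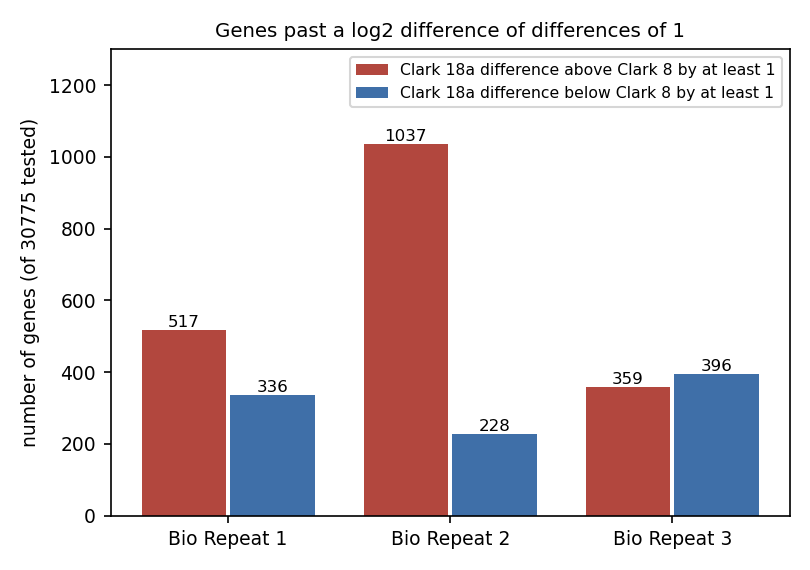
Number of the 30775 tested genes whose difference of differences, on the log2(RPKM + 1) scale, was at least 1 (left bar) or at most -1 (right bar) within each biological repeat. The left bar is the higher one in Bio Repeats 1 and 2 (517 and 336, 1037 and 228), and the right bar in Bio Repeat 3 (359 and 396).

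Some genes with wide region differences had a difference of differences near 0, which is how they were chosen. Among genes called in both lines with a difference of differences within 0.1 of 0, Glyma.09G084200, which codes for 229 amino acids, led with 70.4, 175 and 71.4 RPKM in Clark 18a black and 0.343, 0.145 and 0.178 RPKM in Clark 18a yellow, against 95.1, 67.4 and 144 RPKM in Clark 8 black and 0.0754, 0.497 and 0.255 RPKM in Clark 8 yellow. It rose in black by 6.31 in Clark 18a and 6.28 in Clark 8 (limma adjusted p = 9.81e-05 and 0.000116), and the difference of differences was 0.03 with an SE of 0.48. Glyma.07G139400, Glyma.19G091800 and Glyma.19G051100 followed, with rises of 5.24 to 5.49 in Clark 18a and 5.21 to 5.45 in Clark 8 and differences of differences of 0.04, 0.03 and 0.02. Their standard errors of 0.35 to 0.54 are among the wider ones, so values near 0 do not show equal responses. Their yellow levels lay under 1 RPKM in all libraries, where the added 1 RPKM levels out ratios: the ratio of means, black over yellow, was 2710 in Clark 18a and 205 in Clark 8 for Glyma.19G091800, 2554 and 461 for Glyma.19G051100, and 449 and 159.2 for Glyma.07G139400. Their voom values were 3.81, 1.89 and 1.33 (adjusted p = 0.37, 0.69 and 0.46), and that of Glyma.09G084200 was 0.23.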

How the data were processed

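Polyadenylated RNA of immature seed coats was sequenced on an Illumina HiSeq-2000, per the labels' protocols. The authors deposited RPKM values for 88647 transcript models of 56044 genes with their coding and cDNA lengths. Bowtie 1 is named in the submitters' processing notes; the sources used here give no build, annotation, strandedness or treatment of reads with several hits. RPKM times length gave whole multiples of 1 hit in each library (100% of 196517 low values within 0.05), from which hits were recovered; a hit shared by models may be counted for each, so totals can exceed reads.

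Each gene was represented by its model of longest cDNA. Genes with at least 1 RPKM in at least 3 of 12 libraries were tested (30775), with 2 chalcone synthase sums added as rows. Log2(RPKM + 1) was fitted in limma 3.58.1 (R 4.3.3) with 6 pair terms, 1 region term per line and an intensity trend, on 4 residual degrees of freedom. P-values are two-sided and Benjamini-Hochberg adjusted over all rows; a call is an adjusted p under 0.05. This scale understates changes of low genes. P-values rest on the spread of the black minus yellow differences between the pairs of a line, pooled over both lines and moderated across genes.

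Black and yellow libraries of the same line and number deviated together (r = 0.522 to 0.745 in all 6 pairs, -0.608 to 0.129 otherwise), which is why pairs were kept. Across lines, mean deviations of same-numbered pairs correlated at 0.211, 0.113 and 0.412, and other numbers at -0.359 to 0.266, with the first of Clark 18a and second of Clark 8 the highest.

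Named genes were AGO5, the chalcone synthases, the 12 lowest p-values in each direction among sizes of at least 1 with called genes first, the 6 largest opposite calls, and 4 parallel genes; 11 genes with 1 group apart were added after their values were seen. The members and lists were chosen with earlier results of these data known. The reference table (0 lines with a Glyma identifier) pairs no identifier with a name, so lists by annotation words and marker checks were not made; AGO5 and chalcone synthase were checked only by coding length (890 and 388 or 389 amino acids; the longest model of Glyma.11G011500 codes for 326, its other for 389). Alternatives covered the pairing, pseudocount, filter, scaling, models, trend, weights, voom on recovered hits and leaving out pairs. The scripts were tested on simulated data.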

Additional observations from a re-analysis of the deposited data

Results flagged for a closer look

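Glyma.03G074000 was marked because its region difference differed between the lines in a direct test: the difference of differences was 2.98 on the log2(RPKM + 1) scale (SE 0.20, limma with Benjamini-Hochberg adjustment, adjusted p = 0.0431), with 3 of 3 pairs above 0 in Clark 18a and 3 of 3 below 0 in Clark 8. Its means were 1.40 ± 0.478 RPKM in black and 0.576 ± 0.340 RPKM in yellow in Clark 18a, and 0.886 ± 0.117 RPKM in black and 8.97 ± 2.64 RPKM in yellow in Clark 8 (SD, n = 3 each). Over the settings tried its adjusted p ran from 0.0194 to 0.288. Groups of 3 libraries are too small to test for a single library that stands apart.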

How the results depend on the processing

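The number of genes called for the difference of differences (1 above 0 and 0 below in limma with Benjamini-Hochberg adjustment) was never above 5. Without the replicate block it was 5 (3 above, 2 below): Glyma.02G002100, Glyma.03G074000, Glyma.08G109400, Glyma.10G002200 and Glyma.11G073700. In Bio Repeats 1 and 2 alone it was 5 (4 above, 1 below), and with array weights 4, all above. Pseudocounts of 0.1 and 0.5 gave 2, both above. Quantile normalization called 1, a different gene, Glyma.10G129500. It was 0 with the replicate block across lines, with no filter, with a filter at 5 RPKM, with upper quartile scaling and with models summed, and 0 to 2 (all above, with 0 below) when 1 pair was left out. The block across lines changed no other call of a single gene or sum that the report gives, beyond those printed there. Glyma.03G074000 had an adjusted p of 0.184 with no filter, 0.109 at 5 RPKM, 0.0500121 with upper quartile scaling, 0.0792 with quantile normalization and 0.0555 with models summed. Region calls were 4607 in Clark 18a and 4268 in Clark 8 without the replicate block, and 6524 and 6153 at 5 RPKM; with 1 pair left out they ran from 7205 to 11282 and from 5270 to 12193. The share above 0 was 53.0% and 54.7% under upper quartile scaling and quantile normalization. Fewer genes were tested at 5 RPKM (15958); the cause of the other changes was not tested.

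Of 914 values for 49 single genes, 875 kept their sign and side of the threshold, 11 lost and 12 gained a call, and 16 changed sign. Of the sign changes, 15 were in the 4 genes with values near 0: -0.0025 for Glyma.09G084200 and -0.0040 for Glyma.19G051100 with upper quartile scaling, -0.15 (array weights) and -0.10 (Bio Repeats 1 and 2) for Glyma.07G139400, -0.040 for Glyma.19G051100 in Bio Repeats 1 and 2, and ranges with 1 pair left out of -0.45 to 0.32 (Glyma.09G084200), -0.47 to 0.45 (Glyma.07G139400), -0.25 to 0.36 (Glyma.19G091800) and -0.28 to 0.51 (Glyma.19G051100). The other was Glyma.10G109500 with voom, -0.58. Of the 329 genes at unadjusted p under 0.05 and a size of at least 1, 220 to 328 met both limits in the same direction under the settings that tested all of them, apart from models summed and no intensity trend (329 each). Of genes with a mean log2(RPKM + 1) under 1, 1.57% met both limits, and of those over 5, 0.679%.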
